A study of Mus musculus with 6 samples.

Results

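Of 109853 regions of open chromatin found in liver nuclei by ATAC-seq, 1744 (1.59%) carried a peak in all 3 control libraries and in 1 of the 3 corepressor-knockout libraries, dKO 3, and in neither of the other knockout libraries, dKO 1 and dKO 2. They were chosen by that presence and absence alone: peaks of the 6 libraries on chromosomes 1 to 19 and X were merged where they shared at least 1 bp, and the value of a region in a library was its highest normalized tag count there. ATAC-seq marks open DNA through the cuts of the Tn5 transposase. All nuclei came from livers of male mice of the genotype Ncor1/2 F/F, whose floxed alleles Cre can delete, and were sorted for HNF4a, a transcription factor of hepatocytes. The control group (3 libraries) received an adeno-associated virus (AAV) with eGFP and the dKO group (3 libraries) an AAV with Cre. Both were collected on day 5 after the virus at ZT10, that is 10 h after lights on. The sources used here give neither age nor strain, nor the promoter that drove Cre, nor the share of nuclei with the deletion. Since no label makes each library a separate animal, p-values reflect the spread among these libraries only, and that spread may be technical.

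NCOR1 is a nuclear receptor corepressor: it is recruited by receptors such as the thyroid hormone receptors and REV-ERBs and brings the histone deacetylase HDAC3 to chromatin. In liver this machinery is known for restraining lipid and clock genes, and the title of the series ties it to gluconeogenesis driven by the glucocorticoid receptor. An open region in ATAC-seq can be a promoter, an enhancer or another site where nucleosomes have given way to bound factors.

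The promoters below carry members that differ in strength and in how far the next dKO 1 or dKO 2 peak lies. Each is the 250 bases before the gene's start, 5′ to 3′ in the direction of transcription, from RefSeq on GRCm38.p6 (the assembly of mm10). Capitals mark the bases inside the member region and lower case the flanks. Hsd3b5, a steroid dehydrogenase of male mouse liver, lies on the minus strand (chr3:98645535-98645784), as does Slc22a26, of the organic anion transporter family (chr19:7802668-7802917). Cyp2c50, a cytochrome P450, lies on the plus strand (chr19:40089429-40089678), as does Nr2c2, which encodes the orphan nuclear receptor TR4 (chr6:92092183-92092432).
Hsd3b5: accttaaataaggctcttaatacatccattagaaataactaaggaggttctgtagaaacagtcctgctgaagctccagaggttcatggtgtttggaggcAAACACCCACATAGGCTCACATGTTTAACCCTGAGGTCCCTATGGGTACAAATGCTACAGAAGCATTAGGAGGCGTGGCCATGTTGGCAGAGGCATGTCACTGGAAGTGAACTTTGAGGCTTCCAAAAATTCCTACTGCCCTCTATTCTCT
Slc22a26: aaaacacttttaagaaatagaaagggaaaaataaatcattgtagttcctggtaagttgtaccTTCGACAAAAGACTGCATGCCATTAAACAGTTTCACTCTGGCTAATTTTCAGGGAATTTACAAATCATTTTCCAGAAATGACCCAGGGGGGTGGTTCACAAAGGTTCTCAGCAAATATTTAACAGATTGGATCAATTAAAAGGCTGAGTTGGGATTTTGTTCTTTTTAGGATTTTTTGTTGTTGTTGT
Cyp2c50: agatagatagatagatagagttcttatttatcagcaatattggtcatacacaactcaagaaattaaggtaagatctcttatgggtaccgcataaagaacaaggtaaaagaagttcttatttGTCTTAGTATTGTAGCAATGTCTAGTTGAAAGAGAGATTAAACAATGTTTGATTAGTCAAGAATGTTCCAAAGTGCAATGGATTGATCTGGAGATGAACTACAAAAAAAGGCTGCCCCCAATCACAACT
Nr2c2: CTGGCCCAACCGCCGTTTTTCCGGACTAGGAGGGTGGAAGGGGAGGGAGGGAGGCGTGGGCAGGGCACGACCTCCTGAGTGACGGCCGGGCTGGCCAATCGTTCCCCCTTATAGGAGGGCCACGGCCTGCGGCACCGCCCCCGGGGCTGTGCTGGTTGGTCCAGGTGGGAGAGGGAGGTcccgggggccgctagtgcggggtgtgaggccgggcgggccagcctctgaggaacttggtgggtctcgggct

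At Hsd3b5 the member held 18.9, 12.6 and 26.1 normalized tags in control 1, 2 and 3 and 7.53 in dKO 3, and the nearest dKO 1 and dKO 2 peaks lay 15707 and 15719 bp away. Distances between a member and other peaks or regions are from midpoint to midpoint throughout. The value in dKO 3 was thus below every control. At Slc22a26 the control values were 6.92, 6.03 and 10.6 and the dKO 3 value was 5.35. At Cyp2c50 they were 8.89, 9.19 and 8.30 against 7.29, with no dKO 1 or dKO 2 peak within 56314 bp. The member at Nr2c2 was different: it held 56.6, 53.4 and 49.5 in the controls and 58.5 in dKO 3, while dKO 1 and dKO 2 had peaks of 51.1 and 47.9 tags 378 and 361 bp from it. Hsd3b5, Slc22a26 and Cyp2c50 belong to families of similar neighbouring genes, and the placement of reads that fit several copies is not stated here, so their values are uncertain.

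The deposited lists held 68316 to 84614 peaks a library. The smallest values in each list fell on a regular step (100% of the low values), and at 1 tag per step the deepest library had 1.27 times the tags of the shallowest, and the weakest peaks rested on 56 to 59 tags. A peak spanned 172 bp in dKO 3 and control 3, 166 bp in control 2, and 108 bp in the remaining lists (dKO 1, dKO 2 and control 1), so dKO 3 differed from the other dKO libraries in list format as well as in which regions it kept. Every list stopped at a peak score of 35.5 and at a 4-fold excess over the local surroundings. A missing peak therefore does not show a closed site. All 6 hepatocyte markers checked (Alb, Ttr, Apoa1, Hnf4a, Serpina1a and Cps1) had regions within 10 kb.

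Regions kept in a single dKO library were mostly kept in dKO 3. Among the 58791 regions with a peak in all 3 controls, 1744 (2.97%) were kept in dKO 3 alone, 395 in dKO 1 alone and 217 in dKO 2 alone, while 1468 had no dKO peak. The members thus made up 74.0% of the 2356 regions with exactly 1 dKO library. Peak width went only in part with this pattern: control 1, where every member has a peak, is a 108 bp list like dKO 1 and dKO 2. Of the 2372 regions with a peak in control 2, control 3 and dKO 3 (the lists with 166 or 172 bp peaks) and in exactly 1 of the 108 bp lists, 73.5% had control 1 as that list and are the members. Width and library cannot be told apart here.

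**Figure D1:**
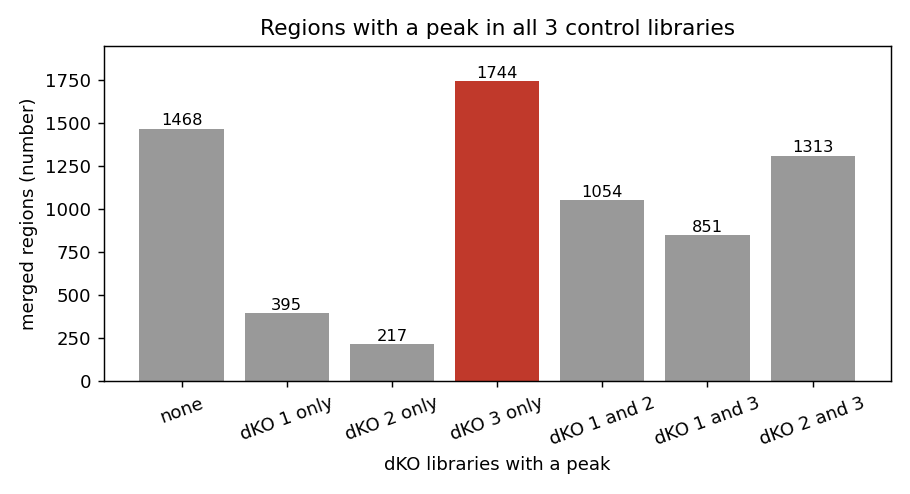
Number of merged regions (vertical axis) with a peak in all 3 control libraries, by which dKO libraries also had one; regions called in all 6 libraries are left out. The members, kept in dKO 3 alone, number 1744, against 395 kept in dKO 1 alone and 217 in dKO 2 alone.

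Most members were weak regions. Their median value was 5.75, 6.13 and 6.90 normalized tags in control 1, 2 and 3 and 5.35 in dKO 3 (interquartile range 4.68 to 6.62), whereas the 51749 regions called in all 6 libraries (shared regions) had medians of 13.5 to 17.4. At 1 tag per step the median member rests on 108, 128, 123 and 88 tags, a counting error of 8.84% to 10.7%. The mean of the 3 controls was under 10 in 1400 members (80.3%) and in 30.1% of shared regions, and at least 20 in 100 members (5.73%) and in 41.4% of shared regions. Regions called only in controls were weak too, with a median control mean of 5.61 against 6.42 for the members.

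In dKO 3 the members stood slightly below the controls. On the log2(value + 1) scale, libraries being centred on the medians of their shared regions, the median difference of dKO 3 from the control mean was -0.27 (interquartile range -0.51 to -0.05), against 0.01 over shared regions. The same difference for each control against the other controls was -0.12, -0.03 and 0.13 over the members. The dKO 3 value was below all 3 controls in 883 members (50.6%), where 28.8% of shared regions were, and above all 3 in 137 (7.86%), where 30.5% of shared regions were. It lay between control values in the other 724. By more than 1 on the log2 scale, 68 members were lower and 0 higher in dKO 3. Against controls 2 and 3 alone, the lists of like peak width, the median difference was -0.31. These libraries chose the members, so the values are a description without a test. A smaller value can come from fewer nuclei with the region open or from less accessibility in each nucleus, and the assay cannot tell these apart.

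**Figure D2:**
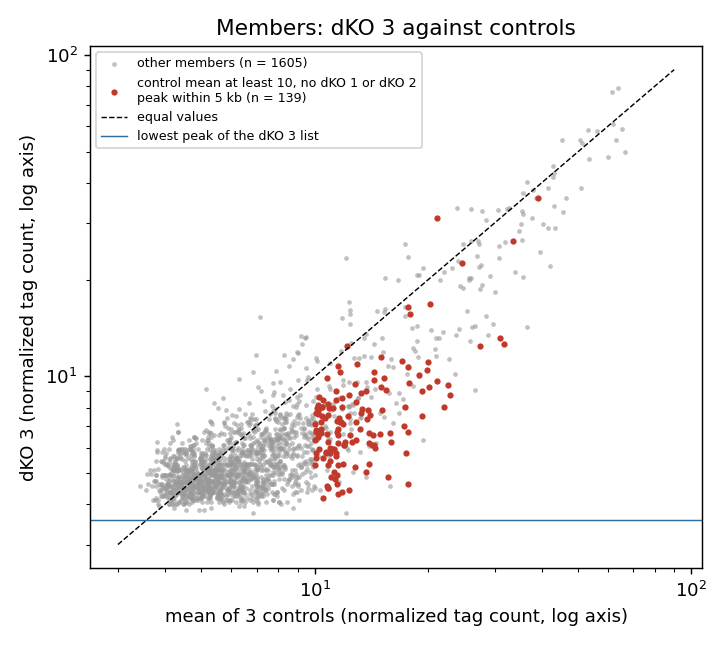
Normalized tag count of each member in dKO 3 (vertical, log axis) against the mean of the 3 controls (horizontal, log axis); the dashed line marks equal values and the blue line the lowest peak of the dKO 3 list, 3.58. Red points are the 139 members with a control mean of at least 10 and no dKO 1 or dKO 2 peak within 5 kb, most of which lie under the dashed line.

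The deficit in dKO 3 differed with a member's strength in the controls. The 405 members with a control mean under 5 had a median log2 difference of 0.00, the 995 between 5 and 10 of -0.33, the 244 between 10 and 20 of -0.66 and the 100 of at least 20 of -0.41. Shared regions fell throughout these ranges, with medians of 0.22, 0.14, 0.02 and -0.09, whereas the members turned back in the strongest. The members were lower in each range. A member needs a dKO 3 peak, and that list holds none below 3.58, which limits the deficit that weak members can show. The ranges were also cut on the control mean that enters the difference. Strength also went with the distance to the nearest dKO 1 or dKO 2 peak: 0%, 3.12%, 7.79% and 31.0% of these strata had one within 500 bp, and 24.9%, 28.0%, 48.4% and 87.0% within 5 kb (5000 bp). In shared regions these shares also climbed, from 3.03% to 19.8% within 500 bp and from 31.5% to 73.0% within 5 kb, and in regions called only in controls they reached 13.2% and 91.8%. In the strongest stratum, 61 of 100 members had a local fold under 6 in dKO 3, close to the floor of 4, against 13.5% of shared regions of that strength. The local fold of dKO 1 and dKO 2 at members has no value, and the part of this floor in the missing peaks was not tested.

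**Figure D3:**
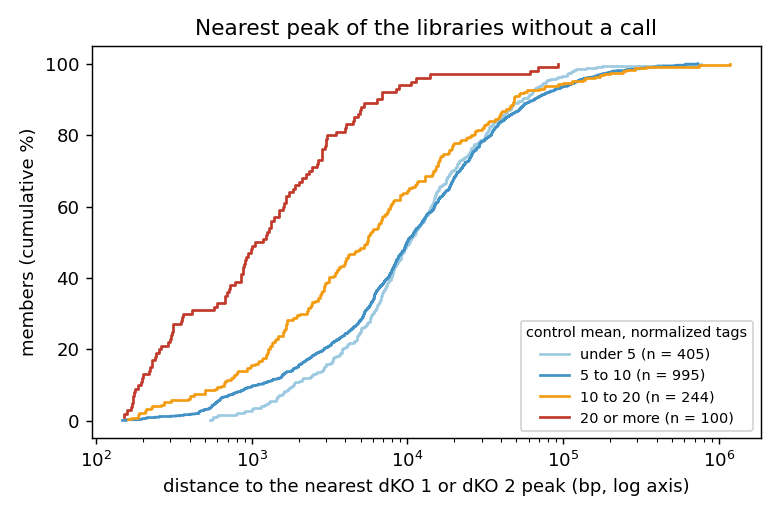
Cumulative percent of members (vertical) by distance in bp to the nearest dKO 1 or dKO 2 peak (horizontal, log axis), with 1 line for each range of the control mean. Within 5 kb (5000 bp) the lines reach 24.9% for the 405 weakest members and 87.0% for the 100 strongest.

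The 10 strongest members lay at or near Fbxo34, Tgif1, Dennd4b, Gdf15, Rprd1a, Ppp2r3a, Synpo, Tbc1d8, Mipol1 and Nr2c2, with control means of 53.2 to 66.7. For 8 of them both dKO 1 and dKO 2 had a peak 157 to 378 bp away by midpoints, with 31.7 to 51.1 tags. At Tgif1, a homeobox repressor gene, the member held 67.4, 64.8 and 63.7 tags in the controls and 59.0 in dKO 3. The neighbouring peaks, with midpoints 157 bp away, held 44.9 in dKO 1 and 36.6 in dKO 2. This member is 175 bp wide and peaks of those lists span 108 bp, so the peaks lay close to its edge. At Ppp2r3a, a regulatory subunit of protein phosphatase 2A, the member held 50.1, 67.0 and 67.6 in the controls and 76.7 in dKO 3. For the 10 together dKO 3 differed from the control mean by -0.51 to 0.22. Gdf15, a stress-induced cytokine, and Synpo, an actin-binding protein, had no such close neighbour. The Gdf15 member held 70.8, 60.6 and 58.1 in the controls and 54.2 in dKO 3, with dKO 1 and dKO 2 peaks 3456 and 3467 bp away.

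Other members stood alone. Of the 344 members with a control mean of at least 10, 139 (40.4%) had no dKO 1 or dKO 2 peak within 5 kb, against 31.0% of shared regions above that cut, 36 of 345 (10.4%) for regions called only in controls, 10 of 183 kept only in dKO 1 and 6 of 70 kept only in dKO 2. Between 10 and 20 it was 126 of 244 members against 5433 of 14701 shared regions. At 20 or more the order was the opposite, 13 of 100 against 5787 of 21448. The median control mean of the 139 was 11.9, against 20.5 for the shared regions that stood alone. This subset of 139 was chosen after its values were seen. Its median values were 12.5, 10.6 and 14.4 in the controls and 7.23 in dKO 3, a median log2 difference of -0.80. In 108 of the 139 dKO 3 was below every control, in 1 it was above. Among the 11220 shared regions that meet the same cuts, 3692 were below and 2953 above, with a median log2 difference of -0.03. The cut on the control mean uses values that enter the difference. Their local fold was far from the floor, with a median of 18.7 in the controls and 12.7 in dKO 3. Of these members 57 lay inside a gene span and 38 beyond 50 kb of any protein-coding gene.

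**Figure D4:**
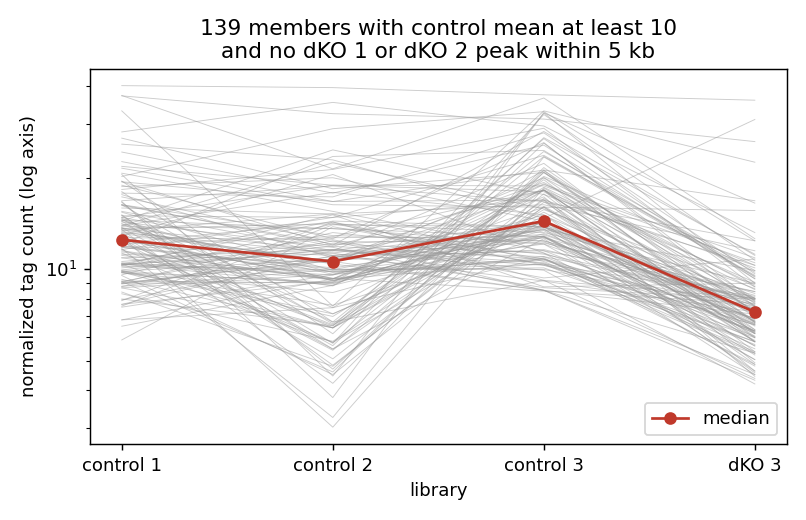
Normalized tag counts (log axis) of the 139 members with a control mean of at least 10 and no dKO 1 or dKO 2 peak within 5 kb; each line joins 1 region's values in the 4 libraries. The medians are 12.5, 10.6 and 14.4 in the controls and 7.23 in dKO 3.

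The 9 isolated members with the highest control means were as follows. At Mlxipl, which encodes the glucose-sensing factor ChREBP, the member held 40.2, 39.6 and 37.5 in the controls and 36.0 in dKO 3, and at Rgs16, a regulator of G protein signalling, 37.2, 32.5 and 31.2 against 26.3. Local folds in dKO 3 were 4.13 at Mlxipl and 4.17 at Rgs16, near the floor of 4. The other 7 differed more, except 31510 bp from Nkx1-1, a homeobox gene, where control 2 stood apart (33.2, 7.56 and 33.2 against 22.5). A member 17086 bp from Ahcy, the gene of the hydrolase that clears S-adenosylhomocysteine, held 24.3, 17.8 and 25.6 in the controls and 9.42 in dKO 3. The member 45166 bp from Cr2, which encodes complement receptor 2, held 18.3, 21.3 and 29.1 against 8.75. The member near Tmem50a held 27.0, 18.4 and 20.8 against 8.02. A member beyond 50 kb of any gene on chromosome 10 (chr10:69001728-69001949) held 28.3, 35.4 and 29.6 against 13.2, and one on chromosome 3 (chr3:60941525-60941747) 37.3, 21.4 and 36.6 against 12.6. At Dcdc2c the values were 20.2, 29.0 and 33.0 against 12.4. At all of the 9 but Nkx1-1, dKO 3 was below every control. The next in order, at Scd1, was the 1 of the 139 above every control (25.8, 22.9 and 14.7 against 31.1).

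Among members with a control mean of at least 10, the largest deficits in dKO 3 were at or near Itga10, Basp1, C6 and Angpt1. The member in Itga10, an integrin gene, held 19.4, 16.7 and 16.9 in the controls and 4.62 in dKO 3 (log2 difference -1.83). The Basp1 member (-1.69) lay 22565 bp from the gene. The member 33289 bp from the complement gene C6 held 13.9, 17.9 and 15.1 against 4.86 (-1.60). In Angpt1, which encodes the vascular ligand angiopoietin 1, the values were 16.8, 18.8 and 16.7 against 5.77 (-1.55). The other 2 of the 6 lowest lay beyond 50 kb of any gene, on chromosome 16 (31.7, 23.2 and 25 against 9.05, -1.55, just ahead of Angpt1) and on chromosome 3 (9.74, 15.0 and 11.6 against 3.77, -1.54). Control and dKO 3 values did not overlap at any of the 6, which were picked on the difference between these same values. Local folds in dKO 3 were 4.53 at Itga10 and 4.62 at the chromosome 3 region, near the floor of 4, and 6.83 to 20.1 at the others. For the C6 and Angpt1 members the nearest dKO 1 and dKO 2 peaks lay 39970 bp away or farther. At the other end, the 6 members with the largest positive differences were higher in dKO 3 than in every control. They too were picked on that difference, so the separation adds nothing to it. The member near Src, a tyrosine kinase gene, held 9.69, 11.8 and 14.9 in the controls and 23.3 in dKO 3 (0.80), and had dKO 1 and dKO 2 peaks of 26.7 and 16.7 tags within 187 bp. Scd1 (0.47), Cmip (0.47), Anp32b (0.37), the mitochondrial protease subunit gene Clpx (0.35) and Acot1 (0.31) followed, all with a local fold under 6 in dKO 3.

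The controls themselves differed more at the members than at shared regions. They spanned at least 3-fold in 63 members (3.61%), in 23 of the 139 isolated ones (16.5%) and in 0.334% of shared regions, and control 2 was the lowest in 58 of the 63 and in all of the 23. The 23 lay on 14 chromosomes. Their medians were 13.1 in control 1, 5.41 in control 2, 21.2 in control 3 and 8.99 in dKO 3. At Lrp1b, a lipoprotein receptor relative, the values were 20.5, 4.45 and 32.7 in the controls and 8.99 in dKO 3, and at Rab3gap1, a Rab3 GTPase-activating subunit, 16.7, 3.78 and 32.7 against 16.5. In all 23 control 3 was the highest control (level with control 1 at Nkx1-1), dKO 3 was below control 1 and control 3, and in 22 dKO 3 was above control 2.

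The most members in any 100-kb bin were 4, at the Hsd3b locus on chromosome 3. Besides the promoter member shown above there were members at chr3:98677856-98678070 (17.8, 17.3 and 28.1 in the controls, 9.66 in dKO 3), chr3:98686442-98686618 (14.6, 14.8 and 23.2 against 10.2) and chr3:98687815-98687987 (17.5, 15.7 and 20.1 against 9.54). In each of the 4, every control was above dKO 3. A region inside Hsd3b5 that was called in all 6 libraries held 32.7, 33.0 and 47.1 in the controls, 14.0 in dKO 1, 12.5 in dKO 2 and 23.1 in dKO 3. There dKO 3 lay between the controls and the other dKO libraries. At another region called in all 6 libraries (chr3:98616290-98616590) it did not: the controls held 6.28, 6.80 and 13.5, and dKO 1, dKO 2 and dKO 3 held 4.26, 3.50 and 8.02, so that dKO 3 was above control 1 and control 2. Members elsewhere were scattered: 1471 of the 1597 bins with a member held 1, and the median gap between neighbouring members was 798 kb.

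**Figure D5:**
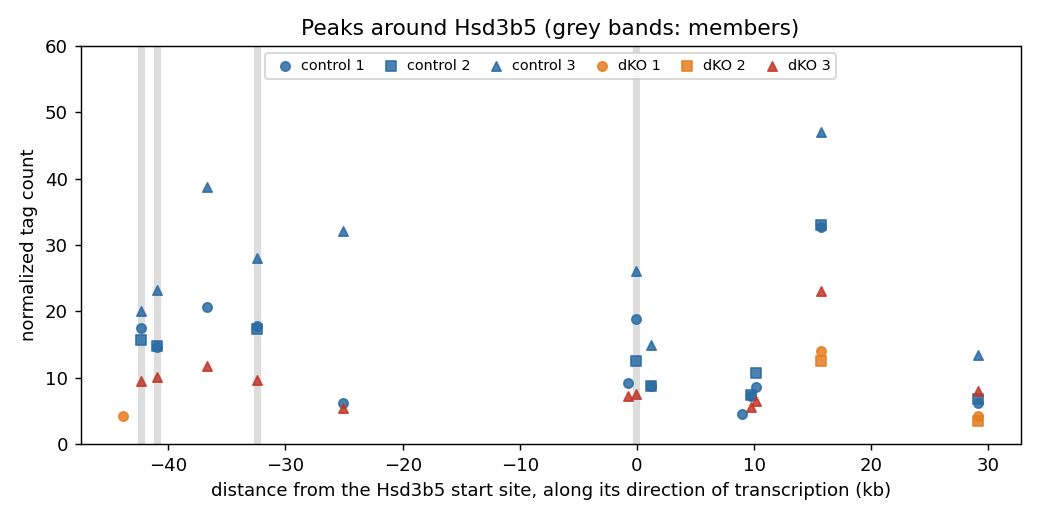
Normalized tag counts of all peaks around Hsd3b5 against distance from its start site along the direction of transcription, by library. At the 4 members (grey bands) dKO 3 holds 7.53 to 10.2 tags, below the 12.6 to 28.1 of the controls, and dKO 1 and dKO 2 have no peak.

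Members linked to genes of the pathways the study is about, inside the gene or within 50 kb of it, are given here by role. Over all regions with a peak in every control and a linked gene, 1350 of 51896 (2.60%) were members, and the lists below are described beside that share without a test. Gluconeogenesis and its regulators had 2 of 111. One was in Insr, the insulin receptor gene (10.3, 13.1 and 12.1 in the controls, 15.2 in dKO 3, with a local fold of 4 in dKO 3), the other at Ppargc1a, which encodes the coactivator PGC-1alpha (7.50, 7.75 and 8.07 against 6.38). The glucocorticoid receptor and its classical targets had 1 of 102, near Cebpb, which encodes a C/EBP factor (36.2, 11.6 and 29.9 against 12.9). Control 2 was lower than dKO 3 there.

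Genes of amino acid catabolism and the urea cycle had 2 of 60. One was in Aass, of lysine breakdown (40.0, 33.4 and 33.6 in the controls, 20.4 in dKO 3). The other lay 36888 bp from Cps1, the gene of the carbamoyl phosphate synthetase of the urea cycle (9.58, 14.1 and 10.8 against 6.87). At both, dKO 3 was below every control. Lipid synthesis had 3 of 93: Mlxipl (above), Gpam, the first acyltransferase of triglyceride synthesis (23.6, 23.8 and 22.0 against 21.7), and Scd1, stearoyl-CoA desaturase (25.8, 22.9 and 14.7 against 31.1). PPAR alpha and fatty acid oxidation had 3 of 54. A member 29150 bp from Ppara held 51.6, 50.5 and 50.6 against 38.7. The others lay near the lipid droplet coat gene Plin2 (40.7, 43.3 and 40.9 against 38.6) and the thioesterase gene Acot1 (16.0, 21.5 and 15.4 against 23.6). These 6 lipid members were strong, with local folds in dKO 3 of 4.01 to 5.87, and dKO 3 was below every control at 4 of them and above every control at Scd1 and Acot1.

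Hepatocyte identity genes had 1 of 100 (Foxa2, a forkhead factor: 4.63, 4.12 and 6.62 against 4.98), the circadian clock 1 of 122 (Bhlhe40, a repressor of clock genes: 4.58, 5.41 and 5.83 against 5.04) and other nuclear receptors 1 of 91 (Esr1, the estrogen receptor: 4.79, 4.74 and 6.95 against 4.68). These 3 were weak in the 4 libraries with a peak. Pericentral and Wnt target genes had 2 of 66, both linked to the T-box factor gene Tbx3 (12.5, 9.33 and 8.47 against 7.72, and 11.3, 7.08 and 9.03 against 5.35). Acute phase genes had 0 of 53. Corepressor complex genes had 1 of 58, inside the targeted gene Ncor1 (chr11:62409752-62409962: 4.68, 7.90 and 7.57 against 7.17, local fold 4.20 in dKO 3). The floxed exons are not named in the sources, so this region does not check the deletion.

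Of the 5 lists of markers of other liver cells, the endothelial and stellate ones had sums, not centred by library, that were lowest in dKO 1 and dKO 2. A library without a peak at a region added nothing to its sum. The regions linked to 8 endothelial markers (inside the gene or within 10 kb), all of which had one, summed to 506, 378 and 490 tags in the controls and to 330, 337 and 501 in dKO 1, dKO 2 and dKO 3. For 8 stellate cell markers, of which Dcn had no region, the sums were 88.8, 104 and 111 in the controls and 66.9, 83.4 and 110 in the dKO libraries. In both lists dKO 3 stood within the controls and dKO 1 and dKO 2 below all of them, and the endothelial sum of control 2 was the lowest of the controls. The libraries differed in scale: medians over shared regions were 16.0, 16.1 and 16.3 in the controls and 15.6, 13.5 and 17.4 in dKO 1, dKO 2 and dKO 3. The place of dKO 2 below all controls depends on that scale in both lists. The endothelial sum also takes in 1 member region, where dKO 1 and dKO 2 have no peak by the rule. Cholangiocyte markers (4 of 7 with a region, none at Krt19, Krt7 and Cftr) summed to 169, 211 and 210 against 191, 176 and 261. Kupffer cell markers summed to 31.4 to 33.6 in the controls and 20.6 to 35.7 in the dKO libraries, with no region at 6 of 8 (Clec4f, Vsig4, Adgre1, Cd5l, Timd4 and Cd68). T, NK and B cell markers had a region at 1 of 8, with sums of 4.42, 3.40 and 0 in the controls and 0, 0 and 5.29 in the dKO libraries. In none of these 3 lists were both dKO 1 and dKO 2 below every control. The 6 hepatocyte markers summed to 1158, 817 and 593 in the controls and 598, 752 and 699 in the dKO libraries. The part of other cells in the members' pattern was not tested.

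Few members were themselves linked to such markers. Endothelial markers had 1 of 39 regions, in Stab2, a scavenger receptor gene of sinusoidal endothelium (13.4, 11.6 and 19.8 in the controls, 7.72 in dKO 3). Stellate markers had 1 of 14, which lay 16337 bp from the collagen gene Col1a2 (5.43, 5.17 and 5.21 against 4.74). Cholangiocyte markers with a member included Spp1, which encodes osteopontin (4.31, 5.65 and 13.2 against 6.26), and Sox9. The share of members in that list was above the 2.60% over all regions with a linked gene. The Sox9 member, near the gene of a bile duct factor, held 4.68, 7.51 and 8.69 in the controls and 11.7 in dKO 3, the highest of the 4. Kupffer cell markers had 0 of 2 and T, NK and B cell markers 0 of 3.

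Members seldom lay at gene ends. Within 1 kb of a gene end there were 100 members (5.73%), against 22.2% of shared regions and 6.54% of regions called only in controls. Beyond 50 kb of any protein-coding gene there were 394 (22.6%), against 10.8% and 23.4%. In this they resembled the regions called only in controls, and weak shared regions too were seldom at a gene end (7.19% of those with a control mean under 5). Inside a gene span there were 873 (50.1%). Whether these are exons or introns was not analysed here. The members were linked to 1176 genes, of which 1031 had 1 member and 3 had 5. The 3 were Ptprd, a receptor phosphatase gene spanning 2271 kb with 22 shared regions, Fars2, a mitochondrial tRNA synthetase gene, and Naaladl2. Lrmda, Asic2, Dock1 and Usp34 had 4 each. Usp34 had 2 shared regions beside its 4 members. By chromosome the members made up 2.38% (chromosome 8) to 4.31% (X) of the regions with a peak in every control.

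Promoter windows, from 250 bases before to 50 after a RefSeq gene start, overlapped 49 members (2.81%) and 15.7% of shared regions. The 49 members touched 58 windows of 51 genes, some of them shifted copies of each other. Motifs were searched on both strands and compared with all 32585 windows. The glucocorticoid receptor half-site AGAACA was in 9 of the 58 (15.5%), in 19% of all windows and in 11.5% of the 9880 windows at shared regions. The Slc22a26 window held 2, of which 1 lies in the stretch printed above (there as TGTTCT, the other strand), and the Cyp2c50 window held 1. The GC box GGGCGG was in 39.7% of member windows, 35.9% of all and 67.6% of those at shared regions, the largest gap between members and shared regions of the 6 motifs searched. Median GC content was 53% at members, 53% over all windows and 62% at shared regions. The C/EBP site TTGCNNAA was in 10.3% against 10.9% of all, the forkhead site TGTTTAC in 1 window (1.72% against 3.67%), and the HNF4 site CAAAGTCCA (0.479% of all) and the thyroid receptor direct repeat of AGGTCA with a 4-base gap in 0. A match is a string of letters, not a bound site.

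Around the rule's edge, values were near the lowest that the lists hold. The lowest values of any member were 2.87 in control 2 at Stk10, 2.92 in control 2 at H2-Aa and 2.98 in control 1 at Rtl9. Just outside were regions in Iqcm (control values 4.74, 5.36 and 6.17), Bpifc and Plxna4, which lacked a peak in dKO 1 but had one of 3.03, 3.03 and 3.19 tags in dKO 2. Such a region would have been a member had that one peak been missed.

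Shared regions near members offered values that the rule did not use, since the rule read only presence and absence at the members. They come from the same 6 libraries, and some lie close to a member (658 bp near Lrrc32). They are therefore not independent of the rule. Over all 51749 shared regions, limma with Benjamini-Hochberg adjustment called 4240 higher (8.19%) and 5995 lower (11.6%) in dKO than in control. Within 10 kb of a member lay 1057 of them, near 751 members (43.1%). These were weaker, with a median mean value of 13.2 tags against 15.9 over all shared regions. Of these 46 (4.35%) were higher, 202 (19.1%) lower and 809 not called, with a median log2 difference of -0.11 against -0.02 over all. Near regions called only in controls the shares were 8.86% and 18.2%. Library by library, the median difference from the control mean near members was -0.19 in dKO 1, -0.10 in dKO 2 and -0.07 in dKO 3. Each of the 3 was lower than its own median over all shared regions (-0.07, -0.01 and 0.01). With dKO 1 left out, 12 higher and 82 lower calls were counted near members, and with dKO 2 left out 10 and 54.

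The strongest lower calls near members had dKO 3 between the controls and the other dKO libraries. In Camk2b, a calcium-dependent kinase gene, a region (chr11:6050251-6050442) held 43.6, 42.8 and 46.4 in the controls and 17.4, 15.7 and 26.2 in dKO 1, dKO 2 and dKO 3 (log2 -1.10, SE 0.13, limma adjusted p = 0.000657). No control overlapped a dKO library. Its member 6152 bp away had a control mean of 9.34 and 6.93 in dKO 3. Near Lrrc32, the gene of a docking receptor for latent TGF-beta, the region held 34.1, 23.6 and 30.4 against 6.12, 7.21 and 12.8 (-1.63, SE 0.20, limma adjusted p = 0.000727), and its member, 658 bp away, went from a control mean of 20.8 to 12.2. The region near Zfp831 held 35.1, 31.1 and 26.5 against 5.77, 5.59 and 15.4 (-1.75). The regions at Ttc39c (-1.40) and Tmem19 (-1.22) were lower too.

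Some shared regions rose next to members. In Map3k13, a MAP kinase kinase kinase gene, a region rose from 13.8, 10.4 and 10.7 to 28.9, 23.0 and 23.6 (log2 1.11, SE 0.16, limma adjusted p = 0.00144), and all 3 dKO values were above every control. The member 5747 bp away in the same gene had a control mean of 42.2 and held 22.1 in dKO 3, the opposite direction. In Pxylp1, a xylose phosphatase gene, a region rose from 10.9, 10.7 and 7.91 to 35.9, 27.1 and 24.1 (1.52, limma adjusted p = 0.000727). In Cmip it rose from 10.2, 16.6 and 9.70 to 34.4, 28.6 and 25.1 (1.29), and the member 1209 bp away was also higher in dKO 3 (25.8) than in every control. A region on chromosome 16 far from genes (1.04) and one in Cux2, a homeobox gene (0.81), rose as well. Each of these 10 calls held in every alternative in which the region was tested.

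Of the genes on the pathway lists with a member, some had a shared region within 10 kb of it. Called lower were a region in Aass (49.4, 49.4 and 50 against 29.8, 27.9 and 40.2, log2 -0.55, limma adjusted p = 0.00576), one in Insr (22.9, 27.4 and 24.3 against 12.9, 13.1 and 19.9, -0.63, 0.0109), one in Mlxipl (32.4, 28.2 and 26.7 against 17.1, 18.1 and 21.9, -0.53, 0.0148) and one linked to Tbx3 (17.8, 11.4 and 12.5 against 6.06, 8.0 and 9.05, -0.71, 0.0246). In these 4 regions every dKO value was below every control. Another Aass region (-0.45, adjusted p = 0.0603) was not called, nor was one in Tbx3 (62.2, 56.7 and 51.9 against 50.9, 45.5 and 62.5, -0.05, adjusted p = 0.784 by limma). There dKO 3 was above every control in normalized tags, but not above control 1 once the libraries were centred. At Insr the member itself went the other way in dKO 3. The regions tested near the members of Cebpb, Bhlhe40, Esr1, Foxa2, Gpam, Plin2 and Scd1 were not called, with log2 differences from -0.43 (Cebpb) to 0.39 (Gpam).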

How the data were processed

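ATAC-seq peak lists of 3 control and 3 dKO libraries were used. Tools named by the submitters' processing notes are HOMER 4.11, SAMtools 1.10, Picard and Trim Galore 0.6.4, with the build mm10. The aligner, read filters and HOMER options were not given in the sources used here. Every deposited list, called per library per the file headers, gives the normalized tag count (a signal scaled to depth by the authors), a focus ratio (a fraction of tags near the centre), a score per peak, a local fold with its p-value, and a clonal fold (both folds are ratios). The p-values were not used, since they come from single libraries.

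All peaks outside chromosome Y were merged at 1 shared bp. Regions were linked to the nearest protein-coding RefSeq gene span (GRCm38.p6) within 50 kb of their midpoint; spans carry no strand or exons. Shared regions were compared by limma 3.58.1 with a mean trend (R 4.3.3) on log2(value + 1), median-centred, group as the only term, 2-sided, Benjamini-Hochberg threshold 0.05, and the script was tested on simulated data. Differences on this scale understate changes of weak regions. An exact permutation test of 3 against 3 libraries cannot give a p below 0.1. Coordinates are as the lists give them. Named regions were the 10 strongest members, the 6 highest and 6 lowest in dKO 3 (control mean of at least 10), up to 3 members per list, members at Ncor1, the 8 genes with most members (all but Zbtb20, with 3, are printed), values at the rule's edge, and the 5 shared regions near members with the smallest p in each direction. Promoters printed and the isolated members were chosen after their values were seen. The members, the 11 gene lists and 5 marker lists, and the tests were chosen with earlier results of these data known. A result at one marker gene is not reported here. Python 3.11.15 with pandas 2.3.3 was used. Other scalings, pseudocounts, widths, filters and leaving out each library were tried.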

Additional observations from a re-analysis of the deposited data

How the results depend on the processing

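The 1744 members became 1718 with all peaks set to 200 bp, 1725 with gaps of up to 100 bp merged, 1472 with the upper 75% of each list by score, and 1996 to 3057 with 1 library left out (3057 without dKO 2). Leaving out dKO 3 leaves the rule without a kept library, so that was not run for the members. Members with dKO 3 below all controls numbered 986 to 1396 with 1 library left out, 1396 without control 1 and 1360 without dKO 2. The median difference of dKO 3 was -0.27 to -0.16 with 1 library left out and -0.61 for members with a control mean of at least 10. The share at a gene end was 8.94% within 2 kb and 9.88% for a control mean of at least 10. The causes of these shifts were not tested beyond the changed rule.

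Near members, higher calls numbered 27 without centring, 10 to 66 with 1 library left out (30 without control 3, 12 without dKO 1, 10 without dKO 2) and 301 within 50 kb. Lower calls numbered 130 with a mean of at least 10, 54 to 238 with 1 library left out and 815 within 50 kb. Over all shared regions, higher calls were 2562 without centring and 1257 to 5174 with 1 library left out, and lower calls 1402 to 8123. The low ends came without dKO 2 and the high ends without dKO 3, and without dKO 1 the counts were 1633 and 2061. With the replicate number as a block the calls were 67 higher and 243 lower near members and 5417 and 7384 over all, but the numbers were not shown to pair libraries, since same-numbered libraries correlated at 0.15, -0.03 and 0.23. The median log2 difference over all shared regions, -0.02, was 0.00 with the sign turned both without dKO 1 and with quantile normalization. The other values given here kept their direction. Chosen after seeing the data, members with no dKO 1 or dKO 2 peak within 500 bp numbered 1663 (846 below all controls), and those with a local fold of at least 6 in dKO 3 numbered 1292 (631 below). Depth limits the weakest regions, which rest on few tags.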
